A study of Rattus norvegicus with 9 samples.

Results

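The enzymes and transporters of glycolysis and gluconeogenesis were followed in rat liver cells on Affymetrix whole-transcript arrays. The set holds 34 listed genes, chosen by name for their place in the pathway. Earlier results of these data were known at that choice. A gene was taken where the platform annotation gives its symbol. Of the 34, 26 had a probe set of their own and are described here. Probe sets for Gapdh, Tpi1, Eno1, Pkm and G6pc1 carry several symbols, so these 5 genes were not named. The other 3, Gckr, Hk1 and Pgam1, were not listed in the annotation and were not analysed here. All 26 measured genes lay above the 25th percentile of every array and were among the 15793 genes tested in all.

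Glycolysis splits glucose into pyruvate, and gluconeogenesis builds glucose from pyruvate, lactate and amino acids over many of the same enzymes. The liver runs either direction according to feeding, under insulin, glucagon and glucocorticoids, and the steps that cannot be reversed have an enzyme for each direction. Transaminases and malate dehydrogenases carry amino acid carbon and reducing equivalents between mitochondrion and cytosol on the gluconeogenic route.

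All 9 arrays came from livers of female F344 rats with the same injury, which was retrorsine at 30 mg/kg in 2 injections with 2 weeks between them, followed at 4 weeks by partial hepatectomy. The plant alkaloid retrorsine blocks division of the resident hepatocytes, so that regrowth after the operation proceeds largely through clusters of small cells with hepatocyte features, the small hepatocyte-like progenitors (SHPCs). The hepatocyte group (3 arrays, labelled as controls) held hepatocytes beside such clusters in livers without transplantation, and it carried the same retrorsine and hepatectomy as the other groups. The SHPC group (3 arrays) held clusters from livers without transplantation. The third group (3 arrays) held SHPC clusters from livers into which sorted Thy1+ donor cells had been given through the spleen, with DPPIV+ donors and DPPIV- recipients. Thy1 is a surface protein found on mesenchymal and other non-parenchymal cells of the injured liver, and DPPIV is a surface peptidase that tells donor from host cells. The design asks how SHPCs differ from the hepatocytes beside them, and how SHPCs differ with and without the transplanted cells. Clusters were picked under the microscope from 7 µm frozen sections stained with hematoxylin and cut out by laser microdissection. For the hepatocyte arrays 1 label speaks of SHPCs with transplantation, while their titles and cell type label give control hepatocytes, which was followed. The sources used here do not give the age of the rats, the number of animals or which arrays share an animal. The p-values therefore rest on the spread between arrays and are too small if arrays of the same group share an animal. Outside the fits with the array number as a block, they take no account of animals shared between groups.

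Values are log2 of the deposited intensity, given for arrays 1, 2 and 3 of a group in that order, and a change is the difference of 2 group means of that log2 value with limma's standard error (SE). A gene was called where limma's p-value, adjusted by Benjamini-Hochberg over all 15793 genes, was below 0.05. The median linear intensity of 7 arrays lay between 19.6 and 20.6, and that of SHPC array 2 and hepatocyte array 2 was 24.1 and 23. These arrays also stood apart on the first principal component, at 54.1 and 42.2 against -22.8 to 2.3 for the other 7. Values without them are therefore given beside some of the changes that they move. Changes printed without such a value can depend on these arrays as well. The 8 measured hepatocyte markers of 10 listed summed to a linear intensity of 39651 to 43925 on the hepatocyte arrays, 39595 to 46327 on the SHPC arrays and 47302 to 48412 on the SHPC arrays of transplanted livers, and 0 of them were at 0. A lower level of a gene in such tissue can come from fewer cells of a type or from less RNA per cell, which cannot be told apart here. The 3 comparisons share groups, so their values are set side by side.

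The clearest differences lay in the cytosolic and mitochondrial aspartate aminotransferases, Got1 and Got2, and in Pfkfb1, the liver form of the enzyme that makes and removes fructose 2,6-bisphosphate. These 3 genes were called higher in SHPCs of transplanted livers than in hepatocytes, at 2.41-fold, 1.65-fold and 1.98-fold, and 0 of the 26 genes were called lower. Over all genes tested, 0.861% were called higher and 0.317% lower in that comparison, or 1.18% in either direction. Because it sets transplanted SHPCs against hepatocytes of livers without transplantation, cell type and transplantation cannot be told apart in it. None of the 26 was called between SHPCs and hepatocytes without transplantation, where limma called 0.0633% of all genes, 0.0317% higher and 0.0317% lower. Also 0 of the 26 were called between SHPCs with and without transplantation, where 0.00633% of all genes were called. With an unadjusted p below 0.05 in limma, SHPCs had 4 of the 26 higher and 0 lower than hepatocytes, against 2.31% and 1.81% of all genes. SHPCs of transplanted livers had 2 higher and 1 lower than other SHPCs, against 5.07% and 2.29% of all genes.

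The promoters of the 3 called genes are shown because these genes were higher in the same comparison. Each run is the 250 bases before the annotated start, on the strand of the gene, from RefSeq with build GRCr8, and capitals mark the motif matches. The Pfkfb1 promoter lies at chrX:22941926-22942175 on the plus strand, that of Got1 at chr1:252329872-252330121 on the minus strand, and that of Got2 at chr19:9180178-9180427 on the plus strand.
Pfkfb1: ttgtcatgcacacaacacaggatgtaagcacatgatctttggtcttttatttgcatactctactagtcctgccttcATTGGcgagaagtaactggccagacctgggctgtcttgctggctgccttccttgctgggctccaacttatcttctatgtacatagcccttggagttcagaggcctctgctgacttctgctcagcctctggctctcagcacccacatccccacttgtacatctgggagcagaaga
Got1: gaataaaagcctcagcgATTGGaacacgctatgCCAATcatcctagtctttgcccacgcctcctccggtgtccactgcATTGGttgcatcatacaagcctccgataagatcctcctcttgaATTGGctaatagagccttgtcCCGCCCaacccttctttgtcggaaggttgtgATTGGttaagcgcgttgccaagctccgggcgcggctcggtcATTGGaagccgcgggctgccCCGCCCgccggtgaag
Got2: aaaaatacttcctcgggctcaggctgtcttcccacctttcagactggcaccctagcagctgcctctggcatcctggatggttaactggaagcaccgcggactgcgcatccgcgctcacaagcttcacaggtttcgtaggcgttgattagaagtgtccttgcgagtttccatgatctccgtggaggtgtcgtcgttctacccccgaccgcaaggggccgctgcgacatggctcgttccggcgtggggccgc

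The motifs searched, on both strands, were the CCAAT box (CCAAT), the GC box (GGGCGG), a CRE half-site (TGACG), an E-box (CACGTG) and a TATA box (TATAAA), and matches of different motifs did not overlap in these 3 runs. The Got1 promoter held 6 CCAAT boxes, whose first bases lay 233, 217, 172, 129, 77 and 36 bases before the start, and 2 GC boxes at 108 and 16. The Pfkfb1 promoter held 1 CCAAT box at 174, and the Got2 promoter held none of the 5 motifs. Of 33469 promoters of the same length, 34% held a CCAAT box, 30.5% a GC box, 18.2% a CRE half-site, 12.9% a TATA box and 5.59% an E-box. Promoters were found for 23 of the 26 genes, of which 10 held a CCAAT box, 13 a GC box, 4 a CRE half-site (Ldha, Mdh2, Pck1 and Slc37a4), 2 an E-box (Ldha and Pfkfb3) and 0 a TATA box. These counts are by gene, while the percentages are by promoter. By promoter, the 23 genes had 26, of which 11, 13, 5, 2 and 0 held these motifs in the same order. A match is a description of these letters only.

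Got1 makes aspartate and oxaloacetate interchangeable in the cytosol and belongs to the malate-aspartate shuttle. Its log2 intensity was 9.65, 9.37 and 9.44 on the hepatocyte arrays, 10.35, 9.97 and 10.19 on the SHPC arrays and 10.75, 10.59 and 10.92 on the SHPC arrays of transplanted livers. The groups formed 3 steps without overlap, with mean linear intensities of 719, 1160 and 1730. Got1 rose by 1.27 ± 0.15 on the log2 scale from hepatocytes to SHPCs of transplanted livers (limma, adjusted p = 0.00585), and the call held under all 21 alternative settings, at adjusted p from 2.5e-05 to 0.048. The step from hepatocytes to SHPCs was 0.69 ± 0.15 (adjusted p = 0.354) and that from SHPCs to SHPCs of transplanted livers was 0.58 ± 0.15 (adjusted p = 0.367), neither of which was called.

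Got2, the mitochondrial partner of Got1 in the shuttle, lay at 6.79, 7.13 and 7.18 in hepatocytes, at 7.46, 7.46 and 7.48 in SHPCs and at 7.85, 7.66 and 7.76 in SHPCs of transplanted livers. Again the 3 groups did not overlap at either step, which held for 2 of the 26 genes, Got1 and Got2, and for 0.412% of all genes. The change from hepatocytes to SHPCs of transplanted livers was 0.72 ± 0.14 (limma, adjusted p = 0.0414). This call held in 7 of 21 alternative settings. It was lost with any single array left out except SHPC array 2, at adjusted p from 0.0644 without SHPC array 1 to 0.219 without array 1 of the transplanted group, and it was 0.228 after quantile normalization. The call was also lost after cyclic loess (0.211) or median centring (0.0614), with all probe sets (0.12), with an intensity trend (0.0684) and with only the compared groups (0.0557). The changes in the other comparisons were 0.44 ± 0.14 for SHPCs against hepatocytes (adjusted p = 0.763) and 0.29 ± 0.14 for the transplantation (adjusted p = 0.697).

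The alanine aminotransferases link alanine to pyruvate, in the cytosol (Gpt) and the mitochondrion (Gpt2). Gpt was 8.08, 7.30 and 8.12 in hepatocytes, 8.42, 8.47 and 8.89 in SHPCs and 8.61, 8.13 and 8.15 in SHPCs of transplanted livers. SHPC arrays lay above all hepatocyte arrays, with a change of 0.76 ± 0.24 (adjusted p = 0.768) that came to 0.49 without hepatocyte array 2, and the mean of the transplanted group lay between. Gpt2 was 8.05, 7.27 and 7.96 in hepatocytes, 8.25, 7.51 and 8.38 in SHPCs and 8.56, 8.52 and 8.59 in SHPCs of transplanted livers. The transplanted group was above all other arrays and the lowest arrays of the other groups were both array 2. Against hepatocytes the Gpt2 change was 0.79 ± 0.26 (adjusted p = 0.269), and 0.55 to 0.94 over the alternative settings. It was called in 3 of these 21, with cyclic loess, with array weights and without both arrays that stand apart. Against SHPCs the Gpt2 change was 0.51 ± 0.26 (adjusted p = 0.705), or 0.24 without SHPC array 2.

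The malate dehydrogenases interconvert malate and oxaloacetate in the cytosol (Mdh1) and the mitochondrion (Mdh2). Mdh1 was 9.62, 8.88 and 9.99 in hepatocytes, 10.12, 9.06 and 10.40 in SHPCs and 10.44, 10.23 and 10.31 in SHPCs of transplanted livers. Its change between transplanted SHPCs and hepatocytes was 0.83 ± 0.35 (adjusted p = 0.448), or 0.52 without both arrays that stand apart. Mdh2 was 9.49, 8.76 and 9.65, then 9.74, 8.78 and 9.93, then 9.86, 9.83 and 9.62 over the same groups, and these groups overlapped. Of the 6 transaminase and malate dehydrogenase genes, 6 had a mean above hepatocytes in SHPCs, with a median change of 0.40, and 6 did so in the transplanted group, whose median was 0.76. In the direct comparison of the SHPC groups 5 of 6 were above 0, with a median of 0.38, or 4 of 6 and 0.15 without SHPC array 2. The median for SHPCs against hepatocytes came to 0.66 without SHPC array 2 and to 0.27, with 5 of 6 above 0, without hepatocyte array 2. Got1 and Got2 were the 2 called of these 6, both against hepatocytes.

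**Figure D1:**
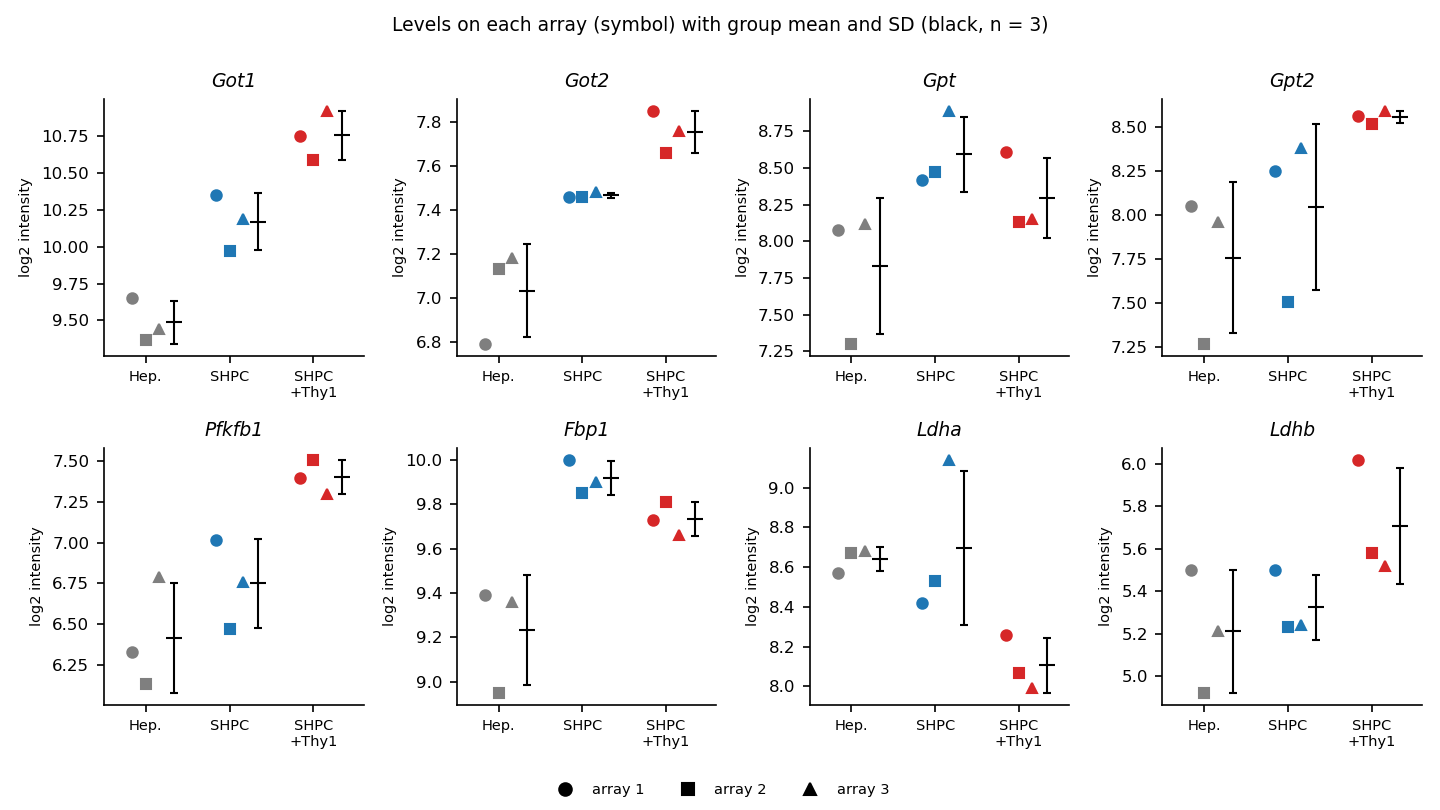
Log2 intensity on each array (y axis) for 8 genes in hepatocytes (Hep.), SHPCs and SHPCs of transplanted livers (+Thy1), with a symbol for each array number and the group mean and SD in black (n = 3). The groups of Got1 and Got2 form steps without overlap, and Ldha of the transplanted group lies below all other arrays.

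Fructose 2,6-bisphosphate turns on phosphofructokinase and holds back fructose 1,6-bisphosphatase, and Pfkfb1 sets its level in liver. Pfkfb1 was 6.33, 6.13 and 6.79 in hepatocytes, 7.02, 6.47 and 6.76 in SHPCs and 7.40, 7.51 and 7.30 in SHPCs of transplanted livers. The transplanted group lay above all other arrays, while hepatocytes and SHPCs overlapped. Pfkfb1 rose by 0.99 ± 0.20 in transplanted SHPCs against hepatocytes (limma, adjusted p = 0.0476), a call that held in 11 of 21 alternative settings. It was lost without hepatocyte array 1 (adjusted p = 0.142) or 2 (0.156), without SHPC array 3 (0.0784) and without array 1 (0.206), 2 (0.227) or 3 (0.173) of the transplanted group. The call was also lost after median centring (0.129), with all probe sets in the fit (0.147), with an intensity trend (0.0571) and without the intensity filter (0.053). Against SHPCs the change was 0.65 ± 0.20 (adjusted p = 0.46). The inducible isoform Pfkfb3 lay between 4.52 and 5.19 on all 9 arrays, with changes of -0.06, 0.04 and -0.02 in the 3 comparisons and overlapping groups.

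Fbp1, fructose 1,6-bisphosphatase, removes a phosphate on the gluconeogenic route. It was 9.39, 8.95 and 9.36 in hepatocytes, 10.00, 9.85 and 9.90 in SHPCs and 9.73, 9.81 and 9.66 in SHPCs of transplanted livers. Both SHPC groups lay above all hepatocyte arrays, and SHPCs without transplantation were the highest. The change of SHPCs against hepatocytes was 0.68 ± 0.15, or 1.6-fold, with limma's adjusted p = 0.3. Against hepatocytes the transplanted group differed by 0.50 ± 0.15 (adjusted p = 0.207), and against SHPCs by -0.19 ± 0.15 (adjusted p = 0.733).

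Phosphoenolpyruvate carboxykinase makes phosphoenolpyruvate from oxaloacetate, in the cytosol (Pck1) and the mitochondrion (Pck2). Pck1 was 11.33, 11.49 and 11.70 in hepatocytes, 11.62, 11.78 and 12.09 in SHPCs and 11.08, 11.57 and 11.85 in SHPCs of transplanted livers. All groups overlapped, and the changes were 0.32 ± 0.21 for SHPCs against hepatocytes and -0.33 ± 0.21 for the transplantation, at adjusted p = 1 and 0.71. Pck2 was 5.76, 5.67 and 5.57 in hepatocytes, 5.78, 5.42 and 5.74 in SHPCs and 5.93, 5.83 and 5.96 with transplantation, where the transplanted group lay above all other arrays by 0.26 ± 0.14 against SHPCs (adjusted p = 0.705), or 0.15 without SHPC array 2, and 0.24 ± 0.14 against hepatocytes (adjusted p = 0.617).

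Pyruvate carboxylase (Pc) makes the oxaloacetate that starts gluconeogenesis. Pc was 9.20, 8.77 and 9.05 in hepatocytes, 9.02, 8.39 and 9.25 in SHPCs and 8.82, 8.68 and 8.63 with transplantation, and all groups overlapped. Slc37a4 moves glucose 6-phosphate into the endoplasmic reticulum for its last step to glucose. It was 7.63, 7.12 and 7.61, then 7.88, 7.23 and 7.93, then 7.96, 8.15 and 7.93 over the same groups. The transplanted arrays were above all hepatocyte arrays, by 0.56 ± 0.21 (adjusted p = 0.38), and touched the highest SHPC array at 2 decimals.

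**Figure D2:**
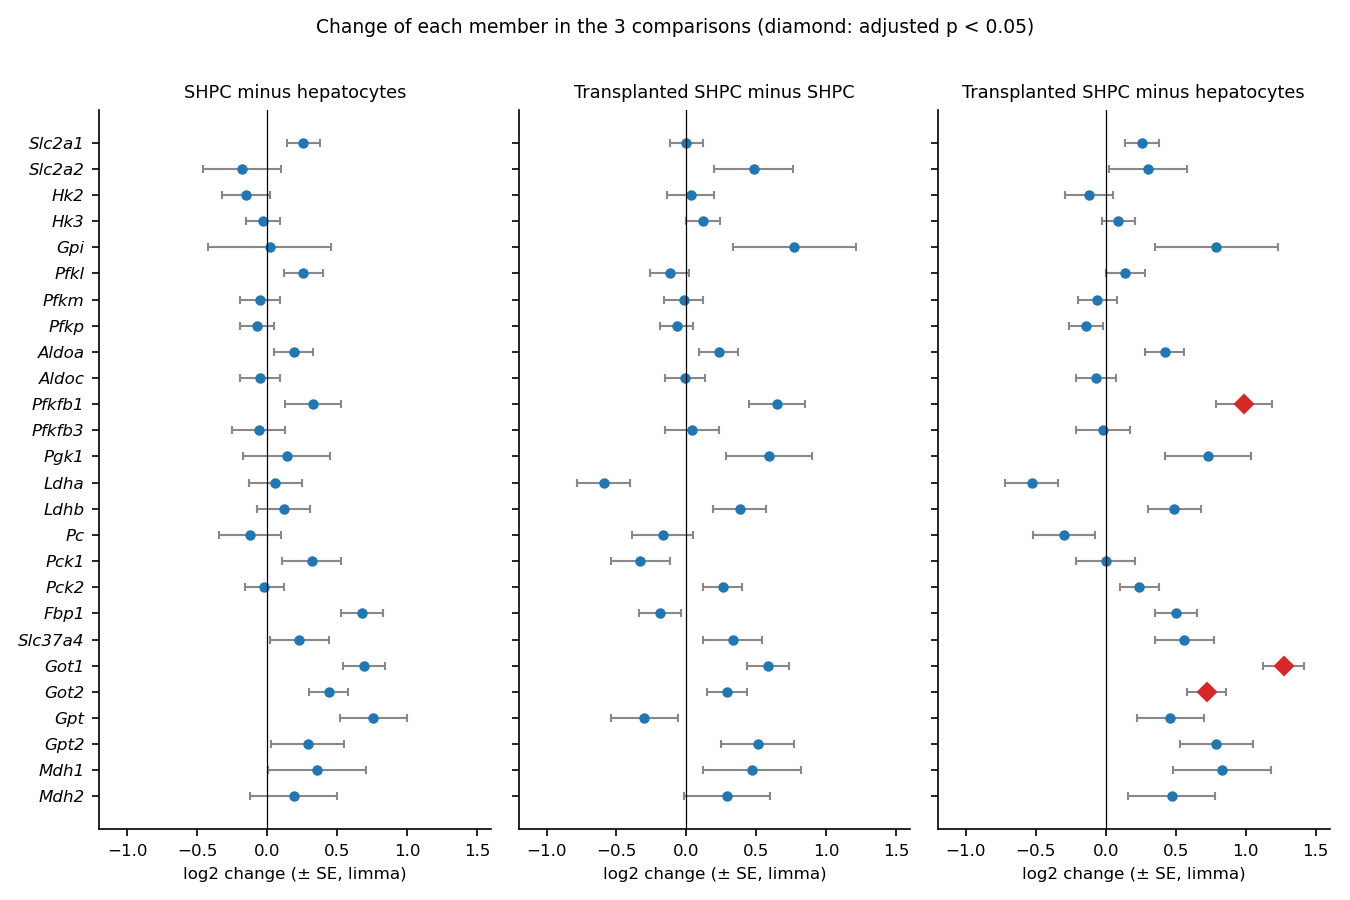
Log2 change of each of the 26 genes (x axis, bars are limma's SE) in SHPCs against hepatocytes, transplanted SHPCs against SHPCs and transplanted SHPCs against hepatocytes. The 3 diamonds, Got1, Got2 and Pfkfb1 in the last panel, are the calls at adjusted p below 0.05.

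Glucose enters hepatocytes mainly through Slc2a2 (GLUT2), while Slc2a1 (GLUT1) is low in resting liver and common in growing cells. Slc2a1 was 5.43, 5.25 and 5.34 in hepatocytes, 5.70, 5.51 and 5.59 in SHPCs and 5.58, 5.53 and 5.69 in SHPCs of transplanted livers. Both SHPC groups lay above all hepatocyte arrays by the same 0.26 ± 0.12 (adjusted p = 1 and 0.503), and between them the change was 0.00 ± 0.12. Slc2a2 was 10.52, 9.44 and 9.90 in hepatocytes, 10.08, 9.31 and 9.94 in SHPCs and 10.24, 10.36 and 10.16 with transplantation. The transplanted arrays were above all SHPC arrays by 0.48 ± 0.28 (adjusted p = 0.705), or 0.24 without SHPC array 2, and the hepatocyte arrays spanned a wider range than either.

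Hexokinases trap glucose as glucose 6-phosphate, and in liver that task falls mostly to glucokinase. Hk2, the form of muscle and growing cells, had the same value, 5.13, on all 3 SHPC arrays at the full precision deposited, 5.11, 5.13 and 5.59 on the hepatocyte arrays and 5.15, 5.38 and 4.95 with transplantation. Hk3, found mainly in myeloid cells, lay between 4.42 and 4.67 on all arrays. Neither showed groups apart, and their changes lay between -0.15 and 0.12.

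Gpi turns glucose 6-phosphate into fructose 6-phosphate. It was 9.57, 8.07 and 9.31 in hepatocytes, 9.51, 8.04 and 9.46 in SHPCs and 9.78, 9.79 and 9.75 in SHPCs of transplanted livers. The transplanted group lay above all other arrays, and both array 2 values were more than 1 log2 unit below their partners. Its change was 0.77 ± 0.44 against SHPCs (adjusted p = 0.705), or 0.29 without SHPC array 2, and 0.79 ± 0.44 against hepatocytes (adjusted p = 0.598), or 0.34 without both arrays that stand apart.

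Phosphofructokinase commits sugar to glycolysis, with a liver (Pfkl), a muscle (Pfkm) and a platelet (Pfkp) form. Pfkl was 6.40, 6.36 and 6.43 in hepatocytes, 6.81, 6.41 and 6.77 in SHPCs and 6.54, 6.54 and 6.54 with transplantation, and its change in SHPCs against hepatocytes was 0.26 ± 0.14. SHPC array 2 lay within the hepatocyte range. Pfkm lay between 4.19 and 4.61 and Pfkp between 4.16 and 4.48 on all 9 arrays, with changes from -0.14 to -0.02.

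Aldolase splits fructose 1,6-bisphosphate, and Aldoa is its form in muscle and growing cells. Aldoa was 7.93, 7.87 and 8.0 in hepatocytes, 8.20, 8.02 and 8.15 in SHPCs and 8.30, 8.18 and 8.58 with transplantation. SHPC arrays lay above all hepatocyte arrays, and the highest arrays were those of transplanted livers, with some overlap between the SHPC groups. The change of the transplanted group against hepatocytes was 0.42 ± 0.14 (adjusted p = 0.286), and that of SHPCs was 0.19 ± 0.14. The brain form Aldoc lay between 3.71 and 4.15 without order.

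Pgk1, phosphoglycerate kinase, makes ATP in lower glycolysis and was the one measured gene of that stretch. It was 8.49, 7.57 and 8.60 in hepatocytes, 8.60, 7.74 and 8.73 in SHPCs and 9.04, 8.98 and 8.82 with transplantation. The transplanted group lay above all other arrays, by 0.59 ± 0.31 against SHPCs (adjusted p = 0.705), or 0.28 without SHPC array 2. Against hepatocytes the change was 0.73 ± 0.31 (adjusted p = 0.449), or 0.40 without both arrays that stand apart.

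Lactate dehydrogenase interconverts pyruvate and lactate with subunits Ldha and Ldhb. Ldha was 8.57, 8.67 and 8.68 in hepatocytes, 8.42, 8.53 and 9.14 in SHPCs and 8.26, 8.07 and 7.99 in SHPCs of transplanted livers. The transplanted group lay below all other arrays, by -0.59 ± 0.19 against SHPCs (adjusted p = 0.478) and -0.53 ± 0.19 against hepatocytes (adjusted p = 0.33). Ldhb was 5.50, 4.92 and 5.21, then 5.50, 5.23 and 5.24, then 6.02, 5.58 and 5.52 over the same groups. Here the transplanted arrays were above all others, by 0.38 ± 0.19 and 0.49 ± 0.19, at adjusted p = 0.705 and 0.403.

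Over the 26 genes, the median change of transplanted SHPCs against hepatocytes was 0.36, beside 0.00 over all genes, and 18 genes were above 0 (69.2%, against 49.7% of all genes). In 15 of the 26 (57.7%) every transplanted array exceeded every hepatocyte array and in 1 (Ldha) every one was lower, against 12.6% and 6.64% of all genes. Among 11838 genes bright enough for a stricter filter, which 25 of the 26 passed, the share with all transplanted arrays higher was 16.1%. With an unadjusted p below 0.05 in limma, 10 of the 26 were higher and 1 lower, against 7.07% and 3.32% of all genes. Without both arrays that stand apart the median of the 26 was 0.21. The array weights of limma, which count arrays with large residuals for less, raised the calls from 3 to 10 genes, 9 higher and 1 lower. There 2685 of the 15793 genes tested were called, 1702 higher and 983 lower. Hepatocyte array 3 had a weight of 4.03, against 0.489 and 0.24 for hepatocyte arrays 1 and 2, so the weighted hepatocyte mean rested mostly on array 3.

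For the transplantation itself, SHPCs of transplanted livers against SHPCs, the median of the 26 was 0.17, beside 0.02 over all genes, and 17 were above 0 (65.4%, against 53.0%). The groups did not overlap for 10 genes that were higher (38.5%, against 10.6% of all genes) and 2 that were lower, Ldha and Fbp1 (7.69%, against 5.23%). Among the genes past the stricter filter the share that was higher without overlap was 13.6%. Over all genes limma called 0 higher and 1 lower here, 3 and 14 after quantile normalization, and 16 and 24 after cyclic loess, with 0 of the 26 among them in each. Centring each array on its median brought the median of all genes to 0.12 and that of the 26 to 0.28. Without SHPC array 2 the median of the 26 was 0.10.

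For SHPCs against hepatocytes the median of the 26 was 0.16, beside -0.01 over all genes, and 17 were above 0 (65.4%, against 48.6%). The median was 0.33 without SHPC array 2 and 0.05 without hepatocyte array 2. The groups did not overlap for 6 genes that were higher (23.1%, against 2.72% of all genes): Slc2a1, Aldoa, Fbp1, Got1, Got2 and Gpt. None of the 26 was lower without overlap, against 2.49% of all genes. Past the stricter filter 2.9% of genes were higher without overlap. Arrays of equal number deviated together in these groups, as did SHPC array 3 with hepatocyte array 1. The differences between arrays of equal number were above 0 in all 3 pairs for 13 of the 26, against 12.3% of all genes. They were below 0 in all 3 for 0 of the 26, against 13.4%. The differences were 0.69, 0.61 and 0.75 for Got1, 0.61, 0.90 and 0.54 for Fbp1, 0.67, 0.33 and 0.30 for Got2 and 0.34, 1.17 and 0.77 for Gpt. With the array number as a block in a fit of these 6 arrays, added after the data were seen, 76 genes (0.481% of all, with 48 or 0.304% higher and 28 or 0.177% lower) were called in place of 10, and 0 of the 26 were among them. The nearest were Got1 (adjusted p = 0.0906) and Fbp1 (0.117).

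**Figure D3:**
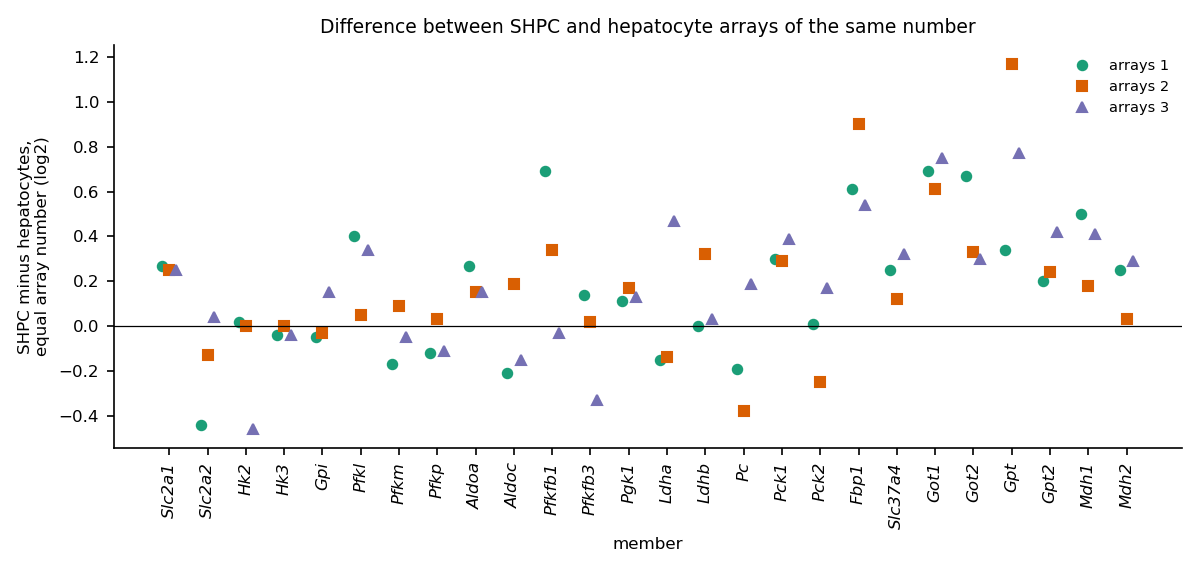
SHPC minus hepatocyte log2 intensity for arrays of the same number (y axis) in each of the 26 genes (x axis), with a symbol for each of the 3 pairs. For Got1, Fbp1, Got2 and Gpt all pairs lie above 0, and for Gpi, Hk2 and Ldha they scatter around it.

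The arrays that stand apart showed in the same genes in both groups. Of the 26 genes, 16 were lowest on array 2 among SHPC arrays and 18 among hepatocyte arrays, and 15 on both, while over all genes the shares were 46.6%, 42.1% and 33.3%. The size, as array 2 minus the mean of arrays 1 and 3, was -1.44 in SHPCs and -1.37 in hepatocytes for Gpi, -1.2 and -0.93 for Mdh1, and -0.92 and -0.97 for Pgk1. It was -0.01 and 0.15 for Got2 and -0.29 and -0.18 for Got1.

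**Figure D4:**
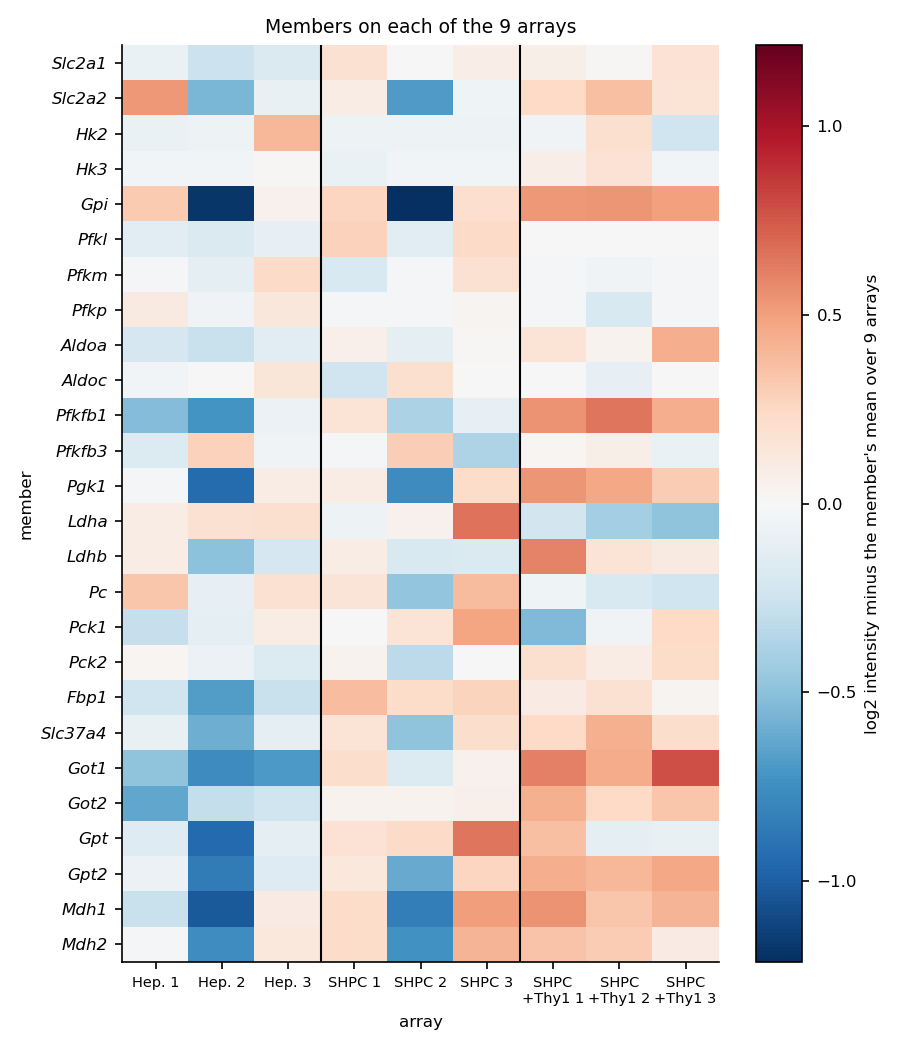
Log2 intensity of each of the 26 genes on each of the 9 arrays, as the difference from its own mean over the arrays (colour, red above and blue below). Array 2 of hepatocytes and of SHPCs is blue for Gpi, Mdh1 and Pgk1, while Got1 goes from blue in hepatocytes to red in the transplanted group.

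Markers of other cells also differed in their means with the transplantation. The means of 14 of 14 Kupffer cell and macrophage markers were higher in SHPCs of transplanted livers than in SHPCs, with summed linear intensities of 3414 to 4046 against 1770 to 2948, and 12 of 14 were higher than in hepatocytes (2462 to 3338). Without array 2 of the compared group these counts were 14 and 8 of 14. Limma called 1 of the 14 higher than in hepatocytes (adjusted p = 0.0456), where 0.861% of all genes were called higher. Over all genes the mean was higher for 53.0% in transplanted SHPCs against SHPCs. The share was 49.7% in transplanted SHPCs against hepatocytes and 48.6% in SHPCs against hepatocytes. The 6 measured endothelial markers of 12 listed were all higher than in SHPCs, at 787 to 901 against 537 to 768. Of the stellate cell and fibroblast markers 8 of 11 were, at 949 to 1146 against 645 to 942. The 8 hepatocyte markers were higher as well. Without SHPC array 2 these counts were 4 of 6, 7 of 11 and 6 of 8. After cyclic loess 1 of the 8 hepatocyte markers was above 0. In SHPCs against hepatocytes 2 of 14 Kupffer and macrophage markers had the higher mean, and 6 of 6 cholangiocyte markers did, at 136 to 146 against 116 to 134. Without SHPC array 2 these counts were 8 of 14 and 4 of 6. Without both arrays that stand apart they were 2 of 14 and 4 of 6. Of the markers of T and NK cells the sums were 206 to 419 in hepatocytes, 180 to 313 in SHPCs and 337 to 451 with transplantation. Of the 8 measured, 3 had a higher mean with transplantation than in SHPCs (4 without SHPC array 2), and 5 than in hepatocytes. Those of neutrophils, B cells and erythroid cells summed to at most 151 on any array, and 0 markers of any list were at 0. The part of these cells in the levels of the 26 genes was not tested.

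Neighbouring genes of the pathway were followed by lists of the same kind. Of 21 other glycolysis and gluconeogenesis genes 18 were tested and 0 were called in any comparison, with medians of 0.03 for the transplantation (-0.02 without SHPC array 2), 0.03 for SHPCs against hepatocytes and -0.05 for transplanted SHPCs against hepatocytes. Pklr, the liver pyruvate kinase that closes glycolysis, was 8.34, 7.27 and 7.58 in hepatocytes, 8.22, 7.39 and 7.61 in SHPCs and 9.06, 9.21 and 8.86 with transplantation. The transplanted arrays lay above all others, by 1.30 ± 0.29 against SHPCs (limma, adjusted p = 0.248) and 1.31 ± 0.29 against hepatocytes (adjusted p = 0.0732). Against hepatocytes Pklr was called in 6 of 21 alternative settings, and its change was 1.08 without both arrays that stand apart. The urate and sugar transporter Slc2a9 was 0.38 ± 0.12 higher in SHPCs than in hepatocytes (adjusted p = 0.768) and 0.55 ± 0.12 higher in transplanted SHPCs than in hepatocytes (adjusted p = 0.0759). Fbp2, the muscle bisphosphatase, differed by -0.44 ± 0.15 with transplantation (adjusted p = 0.521), and the enolase Eno2 by -0.53 ± 0.19 in SHPCs against hepatocytes (adjusted p = 0.889).

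Of 13 genes for pyruvate entry into mitochondria, 12 were tested and 0 called, with a median of 0.40 for the transplantation that came to 0.13 without SHPC array 2. Pdk2 and Pdk4 are kinases that switch off pyruvate dehydrogenase. Pdk2 was 8.39, 7.70 and 8.32 in hepatocytes, 8.71, 7.53 and 8.39 in SHPCs and 9.04, 9.15 and 9.21 with transplantation. The change was 0.99 ± 0.29 against hepatocytes (adjusted p = 0.197), or 0.78 without both arrays that stand apart, with calls in 6 of 21 alternative settings. Against SHPCs it was 0.92 ± 0.29 (adjusted p = 0.476), or 0.58 without SHPC array 2. Pdk4 pointed the other way, at 9.99, 9.79 and 11.08, then 9.71, 9.74 and 10.80, then 9.41, 9.51 and 9.13, with -0.94 ± 0.37 against hepatocytes (adjusted p = 0.409). Pdhb, a subunit of the dehydrogenase, differed by 0.48 ± 0.19 with transplantation (adjusted p = 0.642), or 0.31 without SHPC array 2. Pdp2 and Pdk3 differed by -0.33 ± 0.21 and -0.20 ± 0.15 in SHPCs against hepatocytes (adjusted p = 1 for both), or by -0.12 and -0.10 without SHPC array 2.

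Glycogen stores glucose in liver, and 12 of 15 genes of its metabolism were tested. For the transplantation 11 of 12 were above 0, with a median of 0.20, or 9 of 12 and 0.15 without SHPC array 2. In transplanted SHPCs against hepatocytes 9 of 12 were above 0, with a median of 0.24. Without both arrays that stand apart this came to 8 of 12 and 0.07. Gys2, the liver glycogen synthase, was 8.0, 7.66 and 8.18 in hepatocytes, 7.73, 7.85 and 8.16 in SHPCs and 7.03, 7.04 and 7.07 in SHPCs of transplanted livers. The transplanted arrays lay below all others and close together. Gys2 fell by 0.90 ± 0.17 against hepatocytes (limma, adjusted p = 0.0368), and was the 1 gene of these lists that was called. The call held in 13 of 21 alternative settings and was lost without array 1 (adjusted p = 0.173), 2 (0.151) or 3 (0.162) of the transplanted group and without hepatocyte array 1 (0.106) or 3 (0.145). It was also lost after median centring (0.199), with all probe sets in the fit (0.117) and with an intensity trend (0.0506). Against SHPCs the change was -0.86 ± 0.17 (adjusted p = 0.176). The other genes named did not pass with the settings first chosen. Pygl, the liver phosphorylase that breaks glycogen down, was 1.10 ± 0.27 higher with transplantation than in hepatocytes (adjusted p = 0.109). It was called in 7 of 21 alternative settings, and its change was 0.89 without both arrays that stand apart. Ppp1r3b, which targets a phosphatase to glycogen, was 1.40 ± 0.36 higher with transplantation than in SHPCs (adjusted p = 0.342), with calls in 2 of 21. Phkb and Pgm2 differed by -0.21 ± 0.15 and 0.19 ± 0.15 in SHPCs against hepatocytes (adjusted p = 1 for both), and Pgm2 by 0.03 without hepatocyte array 2.

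The pentose phosphate pathway and the entry of fructose branch from glycolysis, and 11 of 13 genes were tested, with 0 called. For the transplantation 10 of 11 were above 0, with a median of 0.43, or 0.29 without SHPC array 2, and in SHPCs against hepatocytes 4 of 11 were, with a median of -0.10, which turned to 0.12 with 6 of 11 above 0 when SHPC array 2 was left out. Transketolase (Tkt) was 7.53, 6.92 and 7.10 in hepatocytes, 7.69, 6.22 and 7.04 in SHPCs and 8.53, 8.49 and 8.46 with transplantation. The transplanted group lay above all other arrays, by 1.51 ± 0.31 against SHPCs (adjusted p = 0.198), or 1.13 without SHPC array 2. Against hepatocytes the Tkt change was 1.31 ± 0.31 (adjusted p = 0.1), with calls in 8 of 21 alternative settings. Tkfc, which phosphorylates glyceraldehyde from fructose, differed by 1.00 ± 0.23 against SHPCs (adjusted p = 0.279) and 0.79 ± 0.23 against hepatocytes (adjusted p = 0.204). Sord and H6pd differed by -0.29 ± 0.16 and 0.16 ± 0.14 in SHPCs against hepatocytes (adjusted p = 1 for both).

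**Figure D5:**
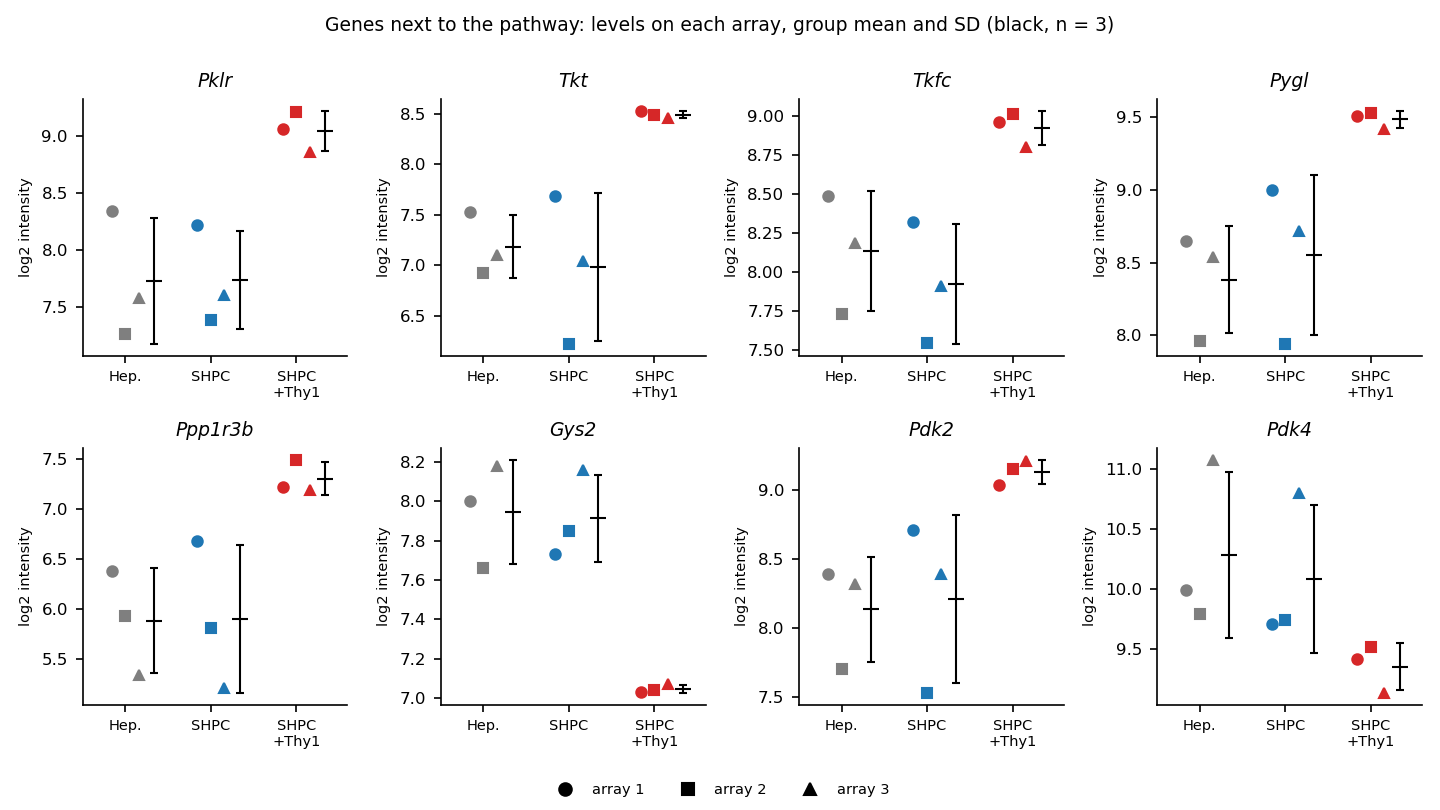
Log2 intensity on each array (y axis) of 8 genes next to the pathway in hepatocytes (Hep.), SHPCs and SHPCs of transplanted livers (+Thy1), with a symbol for each array number and the group mean and SD in black (n = 3). Gys2 on the 3 transplanted arrays lies between 7.03 and 7.07, below all others, and Tkt on them lies between 8.46 and 8.53, above all others.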

How the data were processed

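In all 9 microarrays were analysed, 3 per group, grouped by the cell type and treatment labels. The authors deposited 1 table of intensity values on the linear scale for 36685 probe sets, made with RMA (background correction, normalization and summary of probes) per the submitters' processing notes, whose version and settings the sources used here do not give. The log2 was taken here, and 0 values were missing. The number of arrays limits the precision. The platform annotation names 18511 probe sets with 1 symbol, 575 with several, which were not used, and 17599 are unnamed here. Entrez IDs of 18394 matched RefSeq (GRCr8) and 0 symbols were updated. The probe set with the highest mean stood for each of the 291 genes that had several.

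Genes were tested where 3 or more of the 9 arrays exceeded the array's 25th percentile, which kept 15793 of 18166 genes. Groups were compared in a single limma 3.58.1 fit (R 4.3.3) of 3 group means, with 6 residual degrees of freedom, eBayes and Benjamini-Hochberg adjustment at 0.05, and the script was tested on simulated data. The members and lists were chosen with earlier results of these data known. From each other list, the called genes and the 2 with the smallest p per comparison are named. Equal array numbers in the titles were checked for pairing. Deviations from the group means correlated at 0.53, 0.7 and 0.34 between SHPC and hepatocyte arrays of the same number. For the other pairs of groups the same-number values were -0.09 to 0. SHPC array 3 with hepatocyte array 1 gave 0.48, and SHPC array 1 with hepatocyte array 3 gave 0.24. Equal numbers were treated as pairs only in the block fits and the equal-numbered differences. Which arrays share an animal cannot be read from these values. Alternatives covered scaling, filters, probe choice, spread, array weights, the block and left-out arrays. Promoters came from a RefSeq table.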

Additional observations from a re-analysis of the deposited data

How the results depend on the processing

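Groups of 3 arrays limit how precise each value can be. Of the 26 genes, 0 were called in the transplantation comparison under any alternative. In transplanted SHPCs against hepatocytes the calls were 3, and 1 after median centring, with all probe sets in the fit or with an intensity trend. They were 10 with array weights, where 2685 of the 15793 genes were called, and 4 without both arrays that stand apart, where 575 were. With single arrays left out they were 1 to 3, where 31 to 472 of all genes were called. In SHPCs against hepatocytes the calls among the 26 were 0, and 2 with array weights (Fbp1 and Got1). There 375 of all genes were called with array weights. No called gene reversed. The median change of the 26 was 0.10 to 0.19 for the transplantation with single arrays left out and 0.28 after median centring. It was 0.05 to 0.33 for SHPCs against hepatocytes. For transplanted SHPCs against hepatocytes it was 0.21 to 0.49 with single arrays left out and 0.21 without both arrays that stand apart. The cause of these shifts was not tested. A change of sign under some alternative occurred for 8, 12 and 5 of the 26 genes in the 3 comparisons (transplantation, SHPCs against hepatocytes, transplanted SHPCs against hepatocytes), all with a change of at most 0.29, 0.19 and 0.12. Of these a scaling turned 3 (Pfkm, Pfkp, Aldoc), 0 and 4 (Pfkm, Aldoc, Pfkfb3, Pck1).

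Over all genes the calls in the same 3 comparisons were 1, 10 and 186. They were 0, 0 and 47 after median centring, 17, 17 and 328 after quantile normalization, 40, 34 and 440 after cyclic loess, 0, 0 and 304 in fits of the compared groups alone, 259, 375 and 2685 with array weights, and 23, 48 and 575 without both arrays that stand apart. With single arrays left out they ranged over 0 to 24, 0 to 53 and 31 to 472. With the replicate block over all 9 arrays they were 64, 35 and 367, with 0, 0 and 3 of the 26 genes, and the block changed no call among the 26.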

Other observations

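Hormone and transcription control of the pathway was covered by 21 genes, of which 19 were tested and 0 called by limma in any comparison. With an unadjusted p below 0.05 the transplantation gave 1 of 19 higher and 2 lower, against 5.07% and 2.29% of all genes. SHPCs against hepatocytes gave 2 higher and 0 lower, against 2.31% and 1.81%, and transplanted SHPCs against hepatocytes 2 and 2, against 7.07% and 3.32%. Ppargc1a, a coactivator that turns on gluconeogenic genes in fasting, was 6.78, 5.94 and 5.79 in hepatocytes, 7.45, 6.30 and 7.00 in SHPCs and 7.51, 7.33 and 7.55 in SHPCs of transplanted livers. The transplanted arrays lay above all hepatocyte arrays, by 1.29 ± 0.31 (limma, adjusted p = 0.106), with calls in 5 of 21 alternative settings. SHPCs overlapped hepatocytes at 0.74 ± 0.31 (adjusted p = 1), or 1.05 without SHPC array 2. Onecut1, a liver transcription factor, was 7.90, 7.38 and 8.03, then 7.94, 7.84 and 8.36, then 6.33, 6.81 and 7.30, so that the transplanted group lay below all others, by -1.23 ± 0.26 against SHPCs (adjusted p = 0.224). The glucocorticoid receptor gene Nr3c1 differed by 0.66 ± 0.23 with transplantation (adjusted p = 0.568), or 0.42 without SHPC array 2, and Irs2, which relays insulin signals, by 0.66 ± 0.24 in SHPCs against hepatocytes (adjusted p = 0.925).

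The mitochondrial carriers that move malate, aspartate and related acids were all 5 tested and 0 were called. For the transplantation 5 of 5 were above 0, with a median of 0.43 that came to 0.07, with 4 of 5 above 0, without SHPC array 2. Slc25a10, the dicarboxylate carrier, was 8.21, 7.12 and 7.78 in hepatocytes, 8.24, 6.99 and 8.19 in SHPCs and 8.72, 8.67 and 8.71 with transplantation. The transplanted arrays lay above all others, by 0.90 ± 0.35 against SHPCs (adjusted p = 0.634), or 0.49 without SHPC array 2. Slc25a11 differed by 0.67 ± 0.46 in transplanted SHPCs against hepatocytes (adjusted p = 0.671), or 0.22 without both arrays that stand apart. In SHPCs against hepatocytes Slc25a1 and Slc25a12 differed by -0.20 ± 0.20 and 0.16 ± 0.26 (adjusted p = 1 for both), which came to 0.01 and 0.41 without SHPC array 2, and the latter to -0.12 without hepatocyte array 2.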
